A study of Mus musculus with 9 samples.

Results

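Of the 92645 regions where Argonaute (AGO) CLIP-seq reads were counted in mouse liver, 3400 (3.67%) lay in a 3' UTR and were marked by the authors as orphan, that is, without a seed match of any of the 31 microRNA families searched. They were chosen as the unique regions with that mark and the annotation class 3' UTR, and their counts were not used to choose them. They made up 21.6% of the 15719 orphan regions of all classes and 11.2% of the 30291 regions in 3' UTRs. CLIP-seq sequences the RNA that ultraviolet light crosslinks to a protein. Each of the 9 libraries came from the liver of 1 mouse aged 6 weeks: 5 floxed littermates, 3 females and 2 males, served as controls, and 4 mice, 1 female and 3 males, were miR-122 knockouts (KO). Which Cre driver deletes the floxed allele, and in which cells, the labels do not say. The powdered tissue was whole liver, so fewer cells of a type and less bound RNA per cell cannot be told apart.

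AGO carries a microRNA of about the length printed below, and pairing of its seed, the bases from the second to the eighth, with a 3' UTR usually brings the complex to a messenger RNA and lowers that RNA's stability and translation. AGO can also crosslink where no canonical seed match is found, through imperfect pairing, through a microRNA that was not searched for, or through contacts that do not depend on a microRNA. miR-122 is the most abundant microRNA of hepatocytes, and it acts on genes of lipid and sterol metabolism, among others.

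The orphan mark depends on which seeds were searched. Mature sequences from RefSeq (GRCm38.p6) were found for 24 of the 31 families, and they held 29 distinct seeds. The families with the most 3' UTR regions include those below, in which capitals mark the seed, with 2927, 2910, 2566 and 1934 regions respectively.
mmu-miR-103-3p: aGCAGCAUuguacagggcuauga
mmu-miR-15a-5p: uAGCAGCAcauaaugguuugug
mmu-miR-27a-3p: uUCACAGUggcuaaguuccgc
mmu-let-7a-5p: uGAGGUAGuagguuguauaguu
A region marked orphan lacks a match to these seeds, but it may match a seed outside the searched families. In a list of 70 microRNAs from liver and other tissues, 62 had a sequence, and 50 of those had a seed that none of the 24 families shares. All 11 microRNAs of nervous tissue with a sequence were among them, as were most of those listed for blood, stroma and liver. Of the 11, 4 are shown because several of the regions that rose lie in genes of nerve cells.
mmu-miR-9-5p: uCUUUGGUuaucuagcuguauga
mmu-miR-128-3p: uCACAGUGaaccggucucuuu
mmu-miR-138-5p: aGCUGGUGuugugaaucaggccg
mmu-miR-7a-5p: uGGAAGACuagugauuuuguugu
The seed of miR-128-3p overlaps most of that of miR-27a-3p, so some of its matches are also matches of a searched family. Whether the orphan regions hold matches to these seeds was not analysed here, since no genome sequence was used.

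The orphan 3' UTR regions were spread thinly over many genes. They lay in 2665 genes, of which 2099 had 1 such region, 439 had 2 and 127 had 3 or more. In 2249 of these genes the 3' UTR also held a region with a seed match, and in 416 genes every 3' UTR region was orphan. The regions were nearly uniform in size, 3370 of them 70 bases wide and the widest 138. Their median distance from the gene's 3' end was 1312 bases, against 1206.5 bases for 3' UTR regions with a seed match. A region with a seed match in the same gene lay within 100 bases of 12% of the orphan regions, and another such region lay as close to 12.5% of the seed-matched ones.

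Orphan 3' UTR regions were covered by fewer reads than seed-matched ones. Their median total over the 9 libraries was 19 counts (quartiles 11 and 36), against 34 for seed-matched 3' UTR regions, and a read was seen in all 9 libraries in 545 of them (16.0%), against 36.1%. The deposited table held orphan regions from 3 counts upward and seed-matched ones from 10, so that all 612 3' UTR regions with 3 to 9 counts were orphan. Among the 29679 regions with at least 10 counts, 2788 (9.39%) were orphan, with a median of 23 counts. Above that limit the orphan share fell with coverage, from 13.3% of regions with 10 to 19 counts to 10.1%, 6.63%, 4.37% and 3.42% of those with 20 to 49, 50 to 99, at least 100 but under 500, and 500 or more. Among regions with at least 10 counts, no read in any control was seen in 410 orphan regions (14.7%) and in 5.25% of seed-matched ones, whereas 21 orphan regions (0.753%) had no KO read.

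The libraries held 445912 to 1170130 counts over all regions. Levels are given as CPM, a library's counts brought to one total, here after TMM normalisation, which sets the bulk of regions level between libraries. At the Mir122a locus controls averaged 471 ± 139 CPM (SD, n = 5) and KO livers 28.8 ± 18.5 CPM (n = 4), and every KO library lay below every control. Transcripts of 30 secreted and metabolic hepatocyte genes, all regions together, summed to 49798 to 61950 CPM in controls and 32783 to 37543 in KO. A list of 23 genes of nerve cells summed to between 57 and 70.2 CPM in the control livers, while KO replicates 1 to 4 held 4336, 4985, 5401 and 24609 CPM. In that list 22 genes were higher in every KO library than in every control, and 9 had no control read. Glial genes, 10 in all, summed to 300.7 to 471 CPM in controls, 664 to 748 CPM in KO replicates 1 to 3 and 2550 CPM in replicate 4. KO replicate 4 therefore stood apart, at 5.01 times the average of KO replicates 1 to 3 for the nerve cell list. Shares and counts of calls in KO against control are also given without it, while values of single regions include it.

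Orphan 3' UTR regions took a larger part of the AGO-bound reads in KO livers. Their share of all counts was 1.5%, 1.44%, 1.55%, 1.61% and 1.59% in controls 1 to 5 and 2.28%, 2.29%, 2.30% and 3.42% in KO replicates 1 to 4. The group means were 1.54% ± 0.0717 (SD, n = 5) and 2.57% ± 0.567 (n = 4), a ratio of 1.67, or 1.49 without KO replicate 4. Every KO library lay above every control. As a share of 3' UTR counts alone the means were 5.46% ± 0.296 and 7.37% ± 1.75, a ratio of 1.35, or 1.19 without KO replicate 4, and again no library overlapped.

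**Figure D1:**
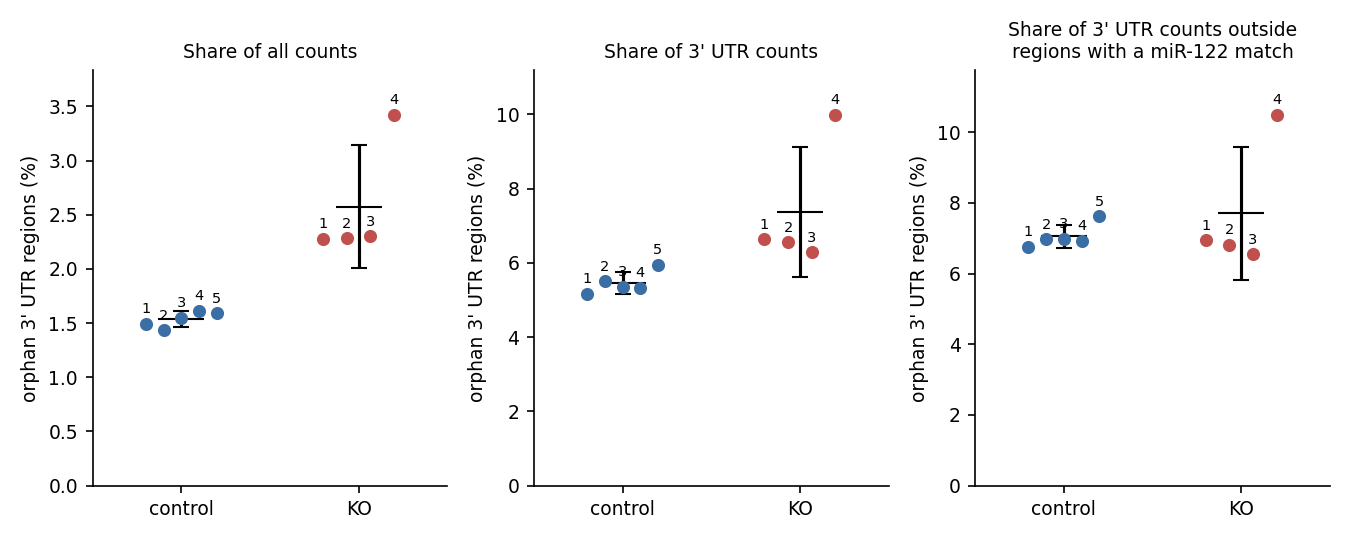
Share of reads in orphan 3' UTR regions in each library (points, numbered by replicate), with the group mean and SD (bars; n = 5 controls and 4 KO), out of all counts (left), of all 3' UTR counts (middle) and of 3' UTR counts outside regions with a miR-122 match (right). KO lies above control in the first 2 panels, and in the third KO replicates 1 to 3 lie at 6.55% to 6.94% beside controls at 6.76% to 7.62%.

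The denominator of these shares includes the miR-122 regions, whose reads were lost in KO. With regions that hold any miR-122 match left out, the orphan share of 3' UTR counts was 6.76%, 6.97%, 6.98%, 6.93% and 7.62% in controls and 6.94%, 6.82%, 6.55% and 10.5% in KO. The means were 7.05% ± 0.328 and 7.70% ± 1.87 (SD, n = 5 and 4). KO replicates 1 to 3 overlapped the controls or lay below them, and only replicate 4 lay above. The ratio of 1.09 became 0.960 without that library, and 0.970 without the regions that had no control read. In the plot of shares by library, the groups are apart in the first 2 panels and overlap in the third. Out of all counts outside miR-122 regions, by contrast, the orphan share was 1.87% to 2.18% in controls and 2.40%, 2.38%, 2.40% and 3.59% in KO, so that every KO library lay above every control. That ratio was 1.31, or 1.17 without KO replicate 4. The share of reads in regions without a control read was 10.3%, 11.1% and 13.3% of the orphan 3' UTR counts in KO replicates 1 to 3, and 26.5% in replicate 4.

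Single regions were compared between genotypes with edgeR's quasi-likelihood test, with sex as a term, and p-values were Benjamini-Hochberg adjusted over all 17182 regions with enough reads. The filter kept regions with at least 9.94 CPM, which is 10 counts in a library of median size, in at least 4 libraries. Of the orphan 3' UTR regions 334 (9.82%) were kept, and 60 of them were lower in KO (18.0%), 118 were higher (35.3%) and 156 did not pass the threshold of 0.05. Over all regions tested, 27.6% were lower and 17.5% higher. The median log2 fold change of the 334 was 0.45, against 0.03 over all regions. With upper quartile scaling 52 of the 334 were lower and 137 higher, beside 25.2% and 24.6% of all regions. With TMM factors taken from regions lacking a miR-122 match, these counts were 67 and 104, beside 30.4% and 13.2%. The seed-matched 3' UTR regions that lack a miR-122 match, 5470 of them tested, gave 383 falls (7.0%) and 1689 rises (30.9%), and their median was 0.54. Relative to those, a larger part of the orphan regions was lower in KO, a difference that was not tested. The 3' UTR regions with a miR-122 7mer or 8mer, 505 of them tested, had 452 lower and a median of -3.51, and the 596 orphan regions of coding sequence had 210 lower, 41 higher and a median of -0.44.

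A region with enough reads in 1 group alone could pass the filter through that group, which favoured a call in that direction in advance. Of the 334 orphan 3' UTR regions, 36.5% met the filter's level in the KO group alone and 97 of these were higher, while 75 met it in the controls alone and 46 of these were lower. Over all regions 68.2% of the 2759 of the first kind were higher and 68.7% of the 5885 of the second kind lower. In the 75 regions that met it in each group, 13 were lower, 16 were higher and the median log2 fold change was 0.12, beside 11.7% lower and 16.7% higher among all 5662 such regions. The ranges of the KO and control libraries did not overlap in 153 of the 334 (45.8%), against 39.8% of all regions tested. Among regions called, non-overlap is favoured in advance by the choice on p-value. It was seen in 103 of the 118 rises and in 45 of the 60 falls, and its share among all called regions was not counted.

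**Figure D2:**
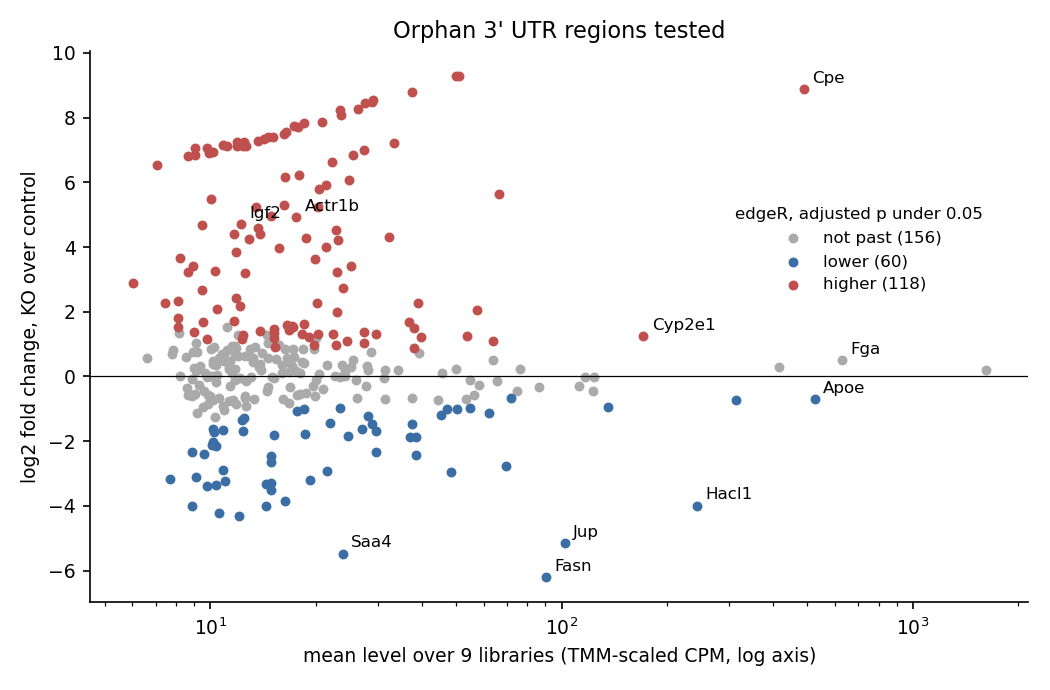
Log2 fold change, KO over control, of the 334 orphan 3' UTR regions tested, against their mean TMM-scaled level over 9 libraries (log axis); each point is 1 region, coloured by its edgeR call, and gene names mark regions described in the text. Falls reach down to -6.21 at Fasn, the fitted rises reach up to 9.29, and the 2 highest levels, at Lars2 and Fga, belong to regions that did not pass.

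The most heavily bound orphan 3' UTR regions changed little or moderately, apart from Cpe and Hacl1. The region with the most reads lies in Lars2, the mitochondrial leucyl-tRNA synthetase (chromosome 9, 123461974 to 123462043, plus strand). It held 1408, 1217, 1347, 1487 and 1983 CPM in controls 1 to 5 and 1806, 1639.8, 1199.7 and 2435 CPM in KO replicates 1 to 4. The groups overlapped (log2 fold change 0.19, SE 0.27, adjusted p = 0.601 by edgeR's quasi-likelihood test), and a second Lars2 region a little upstream did not pass either, at 362 ± 60.8 and 484 ± 151 CPM (SD, n = 5 and 4). The fibrinogen alpha chain gene Fga, which encodes a clotting protein made by the liver, held 565, 344, 393, 507 and 763 CPM in controls and 831, 693, 793 and 758 CPM in KO, which also overlapped (log2 0.51, adjusted p = 0.112). Fgg, the gamma chain of the same protein, was lower in KO, at 383 ± 58.1 and 226 ± 39.1 CPM (log2 -0.74, adjusted p = 0.0166). Apoe, the apolipoprotein that clears remnant lipoproteins, was lower too, at 639 ± 109 and 384 ± 84.7 CPM (log2 -0.71, adjusted p = 0.0368). In Fgg and Apoe every KO library lay below every control.

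A rise was measured in Cyp2e1, the cytochrome P450 that oxidises ethanol (chromosome 7, 140774868 to 140774937, plus strand). Its region held 85.9, 145, 125, 109 and 87.8 CPM in controls and 279, 389, 181 and 139 CPM in KO (log2 1.26, SE 0.31, adjusted p = 0.00295). The lowest KO library, replicate 4, lay within the controls' range. Relative to the gene as a whole, this region included, the rise was larger (log2 2.04, adjusted p = 1.39e-08). A region of Acsl1, which activates long-chain fatty acids, fell from 171 ± 25.7 to 91 ± 23.4 CPM (log2 -0.96, adjusted p = 0.00556). The calls for Acsl1, Apoe, Cyp2e1 and Fgg were each lost in at least 1 other setting, which is 4 of the 13 regions so affected among 52 named ones that passed.

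The falls of smallest p-value, at regions with no seed match of miR-122 or of any other family searched, lay in genes of varied function, among them Fasn, Jup and Hacl1. In the 3' UTR of Fasn, the fatty acid synthase (chromosome 11, 120807767 to 120807836, minus strand), the level was 173, 121, 168, 181 and 161 CPM in controls 1 to 5 and 1.79, 2.74, 0 and 6.13 CPM in KO replicates 1 to 4. The fall from 161 ± 23.6 to 2.66 ± 2.57 CPM (SD, n = 5 and 4) had a log2 fold change of -6.21 (SE 0.46, adjusted p = 3.37e-08, edgeR's quasi-likelihood test), and every control lay far above every KO library. The KO group held 8 reads in all. Of the 16 other Fasn regions tested, 13 were lower, with a median log2 fold change of -1.79, and 3 held a miR-122 match. The orphan region fell beyond its gene (log2 -3.73 relative to the gene, adjusted p = 1.47e-09).

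Jup encodes plakoglobin, a catenin of cell junctions (chromosome 11, 100370878 to 100370947, minus strand). Its region held 144, 123, 250.1, 165 and 216 CPM in controls and 7.17, 2.74, 4.27 and 6.13 CPM in KO, with no overlap (log2 -5.14, SE 0.38, adjusted p = 3.11e-08). The region of Hacl1, a peroxisomal enzyme of fatty acid alpha-oxidation (chromosome 14, 31610163 to 31610232, minus strand), was the most heavily bound of those that fell strongly. It held 444, 489, 442, 322 and 393 CPM in controls and 48.4, 10, 17.1 and 18.4 CPM in KO (log2 -3.99, SE 0.32, adjusted p = 6.62e-08). The groups did not overlap, and all 5 other Hacl1 regions tested were lower too, none of them with a miR-122 match and with a median log2 of -2.22.

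Among secreted proteins, the region of Apof, an apolipoprotein, fell from 112 ± 17.6 to 16.6 ± 3.94 CPM (log2 -2.78, adjusted p = 7.03e-07). Saa4, a serum amyloid A of lipoproteins, held 14.1, 39.5, 37.7, 44 and 74.8 CPM in controls and 0, 0, 2.56 and 2.04 CPM in KO (log2 -5.47, SE 0.62, adjusted p = 2.27e-06). Only 4 KO reads were seen at Saa4, which leaves the size of the fall uncertain, but the lowest control was still above the highest KO library. Serpinf2, the inhibitor of plasmin, fell from 77.7 ± 25.8 to 11.8 ± 6.11 CPM (log2 -2.94, adjusted p = 4.46e-06). These 3 genes are outside the fixed list of hepatocyte products, in which 3 of 10 tested orphan 3' UTR regions were lower and none higher: Apoe, Fgg and Serpina1c (-0.67, adjusted p = 0.0381). Of all regions tested 27.6% were lower and 17.5% higher. Serpina1c belongs to a family of near-identical copies, between which reads may be split. The 10 had a median log2 of -0.28, and 3 regions of Mat1a, the liver's S-adenosylmethionine synthetase, gave -0.62, 0.30 and -0.11 without passing.

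In the list of lipid, sterol and bile acid genes, 10 of 26 orphan 3' UTR regions were tested, with a median log2 of -1.01. Of the 10, 6 were lower and none higher, beside 27.6% and 17.5% of all regions tested. Besides Fasn the falls were in the bile acid uptake carrier Slc10a1, the fatty acid desaturase Scd1, the elongase Elovl5 with 2 regions, and Sc4mol, a sterol oxidase. The Slc10a1 region held 32.4, 26.3, 31.6, 27.9 and 21.6 CPM in controls and 0, 3.65, 1.71 and 2.04 CPM in KO (log2 -3.86, SE 0.54, adjusted p = 1.93e-05), with a wide gap between the groups. Scd1 gave 69, 15.4, 41.2, 106 and 63.3 and 8.96, 19.2, 12 and 12.3 CPM (log2 -2.44, adjusted p = 8.48e-05). Control 2 of Scd1 lay within the KO range, and the 4 other controls lay above it. Elovl5 had log2 -1.01 and -1.06, and Sc4mol -1.01. Regions of Insig2, Ppara and a second one of Scd1 did not pass, with log2 values of 0.19, 0.38 and -0.92. Taken over all their regions, these 41 genes summed to 13630 to 18853 CPM in controls and 6966 to 8523 in KO. The fall was thus not limited to orphan regions, but these sums include regions with a miR-122 match.

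Larp1, whose fall was also among those of smallest p-value, is an RNA-binding protein that controls translation of ribosomal protein messages (chromosome 11, 58059056 to 58059125, plus strand). Its region held 32.4, 24.1, 22.8, 15.2 and 25.9 CPM in controls and 1.79, 0.912, 2.56 and 4.09 CPM in KO (log2 -3.32, SE 0.49, adjusted p = 3.54e-05). None of the 5 other Larp1 regions tested passed as lower, with log2 values from -0.83 to 1.39, and the orphan region was lower than its gene by the test within genes (log2 -3.41, adjusted p = 2.62e-08). Arhgef10l fell from 20.7 ± 6.76 to 1.2 ± 1.41 CPM with 4 KO reads (log2 -4.31, adjusted p = 4.96e-05). Hykk, a kinase of hydroxylysine, fell from 46.8 ± 5.6 to 8.1 ± 5.29 CPM (log2 -2.33, adjusted p = 6.61e-05). Slc25a45, a mitochondrial carrier, had 77 control and 3 KO reads, a ratio of scaled levels of 23.8 with a 95% exact counting interval from 7.83 to 118.

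Of the 9 orphan 3' UTR regions in genes of the AGO and silencing machinery, 2 were tested. The region of Ddx6, an RNA helicase that acts with AGO in repression (chromosome 9, 44637187 to 44637256, plus strand), held 28.2, 21.9, 28.1, 16.9 and 24.5 CPM in controls and 5.38, 3.65, 3.42 and 2.04 CPM in KO (log2 -2.47, SE 0.40, adjusted p = 8.54e-05), with no overlap. Tnrc6b, the scaffold that AGO recruits, held 49.3, 37.3, 43, 46.6 and 40.3 CPM and 43, 42, 56.4 and 53.1 CPM, with overlapping ranges (log2 0.12, adjusted p = 0.733). In the glucose and insulin list 4 of 14 regions were tested, and 1 region of G6pc, the glucose-6-phosphatase, was lower (log2 -1.21, adjusted p = 0.0279). The 2 regions of Foxo3 did not pass (log2 0.50 and 0.63).

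The largest rises were at regions almost free of control reads, in Prkacb, Ntrk2, Cpe and others. Cpe encodes carboxypeptidase E, a peptide hormone processing enzyme (chromosome 8, 64592955 to 64593024, minus strand). Its region held 2.82, 2.19, 1.75, 0 and 2.88 CPM in controls and 514, 566, 719.8 and 2592 CPM in KO (log2 8.87, SE 0.67, adjusted p = 3.81e-08, edgeR's quasi-likelihood test). The lowest KO library was far above every control, and KO replicate 4 was 4.32 times their mean without it. Relative to the Cpe gene as a whole, this region included, there was little difference (log2 0.36, adjusted p = 0.882). In Prkacb, a catalytic subunit of protein kinase A, 2 neighbouring regions rose. The first (chromosome 3, 146730986 to 146731055, minus strand) held 1.41, 0, 2.63, 2.54 and 2.88 CPM in controls and 69.9, 81.2, 85.4 and 351 CPM in KO (log2 5.64, adjusted p = 1.08e-06). No control read lay in the second, which reached 113 ± 105 CPM in KO (SD, n = 4), at least 157-fold higher when 3 reads over the control group are taken as the floor.

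Other regions with no control read were those of Ntrk2, a neurotrophin receptor, at 34.1, 49.3, 41.8 and 212 CPM in KO replicates 1 to 4 (at least 118-fold), and Spock2, a proteoglycan of brain matrix, at 35.9, 37.4, 43.5 and 145 CPM (at least 91.3-fold). A region named Igsf5, at 49.3, 46.5, 76.9 and 286 CPM (at least 159.9-fold), lies over Pcp4 by the RefSeq annotation, which makes the gene uncertain. In each of these the 3 first KO libraries lay close together and replicate 4 stood well above them. Timp2, an inhibitor of metalloproteinases, Pcsk2, a prohormone convertase, and Tmod2, the tropomodulin of neurons, each had 1 control read. Their scaled ratios, with 95% exact counting intervals, were 187 (33.1 to 7423), 234 (41.6 to 9300.3) and 194 (34.5 to 7722). Rtn3, an endoplasmic reticulum protein, had 2 control and 163 KO reads, and Tcf25 1 and 109.

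**Figure D3:**
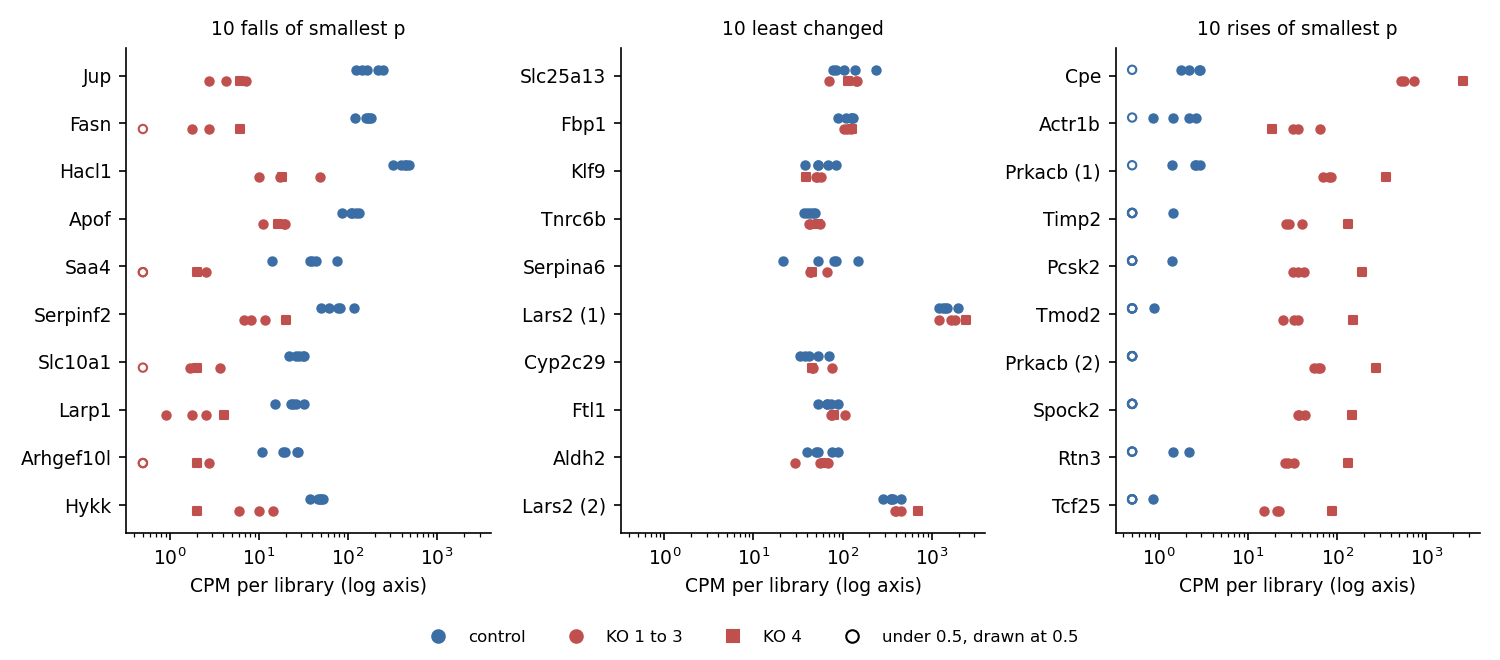
TMM-scaled level in each library (log axis) at the 10 orphan 3' UTR regions of smallest p among falls (left) and rises (right), and at the 10 least changed of the well-covered regions (middle); a number in brackets tells apart regions of 1 gene. Controls and KO do not overlap at any of the 20 falls and rises, overlap at all 10 least changed ones, and KO replicate 4 (squares) is the highest KO library at 9 of the 10 rises.

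The height of KO replicate 4 divided the rises. At 78 of the 118, replicate 4 was over 2 times the average of replicates 1 to 3. These regions had a median fitted log2 fold change of 6.20, or 5.18 with the 33 regions without a control read set at their bound, and median levels of 0.285 CPM in controls and 36.2 CPM in KO. At 20 others that ratio was between 1 and 2 (median log2 1.35), and at 20 it was under 1 (median log2 1.45). Over all rises the median ratio was 3.72, against 0.750 over the falls and 5.01 for the summed nerve cell genes. Of the rises 33 had no control read, 16 had 1 to 3 and 69 had more. Without KO replicate 4, 397 regions were tested, of which 138 were higher and 78 lower, beside 18.8% higher and 28.7% lower of all 20426 regions. These included 115 of the 118 rises and 58 of the 60 falls. What part the nerve cell RNA measured in the KO libraries has in these rises was not tested.

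**Figure D4:**
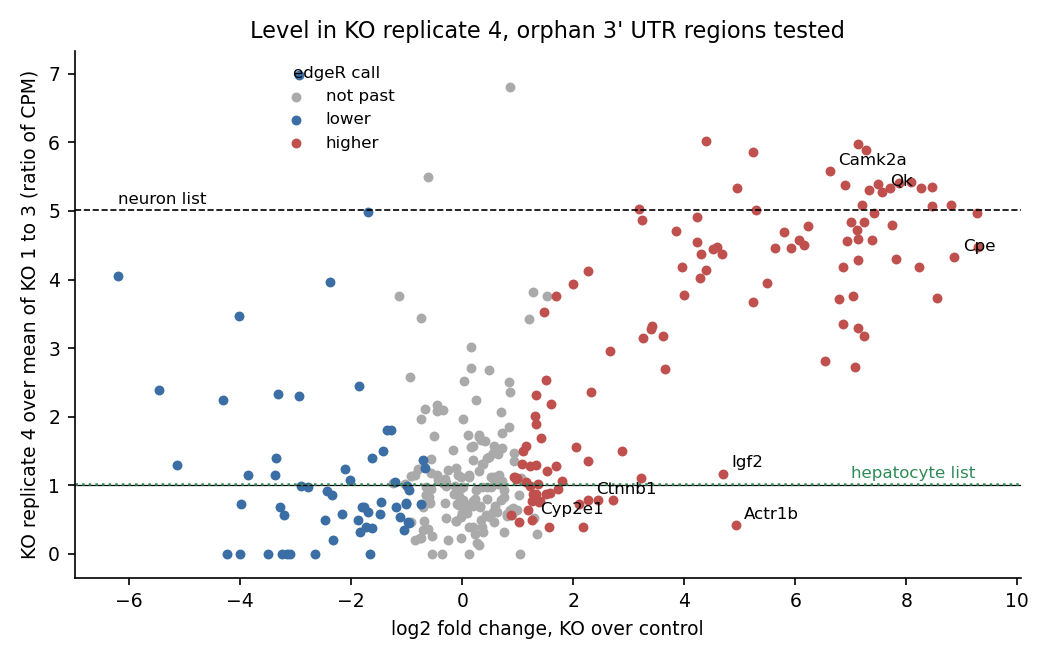
Level in KO replicate 4 over the mean of KO replicates 1 to 3, against the log2 fold change, KO over control, for the orphan 3' UTR regions tested, coloured by edgeR call. The dashed line is the ratio of the summed nerve cell genes (5.01), the dotted line that of the summed hepatocyte genes, and the solid line 1; rises above a log2 of 6 lie well above 1, and 37 of the 60 falls lie under 1.

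Few orphan 3' UTR regions of the cell type lists could be tested. In the nerve cell list 3 of 17 were, each of which met the filter through the KO group alone, which favours a rise in advance: Camk2a, a kinase of synapses (1 control and 141 KO reads), Syt1, a calcium sensor of synaptic vesicles (log2 4.23, adjusted p = 2.21e-04), and Cadm2, an adhesion molecule of neurons (no control read, at least 45.7-fold). The 14 that were not tested held no control read and 377 KO reads. Grin2b, a glutamate receptor subunit, had 5 orphan 3' UTR regions, none of them tested and none with a control read. The list of stellate cells and matrix had 2 regions tested of 8, both in Timp2, which likewise met the filter through KO alone and had replicate 4 at 4.18 and 4.71 times the other KO libraries. Over all regions that list summed to 2077 to 2556 CPM in controls and 4174 to 4725 CPM in KO, with 15 of 20 genes higher in every KO library than in every control and replicate 4 at 0.929 times the others. Endothelial genes had 1 region tested, in Stab2, which did not pass (log2 -0.03), macrophage genes, which summed to 562 to 719.5 CPM in controls and 911 to 1326 CPM in KO with replicate 4 at 0.728 times the others, had 2 regions with none tested, and cholangiocyte genes had none at all. Haemoglobin Hbb-bt, of the red cell list and with close copies in the genome, was higher (log2 1.22, adjusted p = 0.00446). Of the RNA-binding protein genes, 3 of 18 regions were tested: Qk, which guides splicing in glia, had no control read and was at least 51.4-fold higher, Khsrp was higher (log2 1.33, adjusted p = 0.0284), and Zfp36 did not pass (log2 0.01).

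A smaller number of rises did not go with KO replicate 4. Actr1b encodes a subunit of dynactin, the activator of dynein (chromosome 1, 36699844 to 36699913, minus strand). Its region held 0, 2.19, 2.63, 0.846 and 1.44 CPM in controls and 64.5, 36.5, 31.6 and 18.4 CPM in KO (log2 4.93, SE 0.49, adjusted p = 5.45e-07). Replicate 4 was the lowest KO library, and it was still above every control. Relative to the gene the rise was 5.14 (adjusted p = 2.61e-10). Igf2, the fetal growth factor, held 0, 6.58, 1.75, 0 and 0 CPM in controls and 43, 18.2, 12 and 28.6 CPM in KO, with no overlap (log2 4.70, SE 0.66, adjusted p = 1.99e-05). It differed little from its gene as a whole, this region included (log2 -0.30, adjusted p = 0.965).

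Chosen after their values were seen, Anxa5 and B2m belong with these. Anxa5, a membrane-binding annexin, had 2 regions higher, at 7.62 ± 3.69 and 44.3 ± 16 CPM (log2 2.72, adjusted p = 1.95e-05) and at 17 ± 4.32 and 45.4 ± 6.71 CPM (log2 1.32). All 4 3' UTR regions of B2m, the light chain of class I histocompatibility molecules, were orphan. The one at chromosome 2, 122152901 to 122152970, plus strand held 15.5, 19.7, 29.8, 23.7 and 24.5 CPM in controls and 84.3, 73.9, 108 and 139 CPM in KO (log2 2.04, SE 0.29, adjusted p = 2.56e-05), and another was higher as well (log2 1.58). In the 2 others the groups overlapped, with log2 values of 0.95 and 0.51 that did not pass. None of the 3 B2m regions tested outside these was higher, and 1 was lower.

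Regions of 1 gene did not always move together. Of 36 genes with several orphan 3' UTR regions tested, 13 had all of them higher, 2 had all lower, 8 had none past the threshold, and 2 had calls in both directions. Counted singly, 35.3% of the 334 orphan regions tested were higher and 18.0% lower. In Glud1, the mitochondrial glutamate dehydrogenase, 2 regions with centres 86 bases apart went opposite ways. The upstream one (chromosome 14, 34343778 to 34343847, plus strand) held 9.86, 8.77, 14, 10.2 and 5.76 CPM in controls and 29.6, 13.7, 22.2 and 36.8 CPM in KO (log2 1.42, adjusted p = 0.00648). The downstream one, starting at 34343864, held 32.4, 17.5, 29, 27.1 and 41.7 CPM in controls and 9.86, 9.12, 13.7 and 16.3 CPM in KO (log2 -1.42, adjusted p = 0.0029). The fall showed no overlap between groups, while KO replicate 2 lay within the control range at the rise. In Cxcl12, a chemokine of stromal cells, a region rose by 1.32 and another, 303 bases from it, had a log2 fold change of -1.47. Between the 2 lay a region with a miR-122 match that was lower in KO (log2 -1.96).

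Each region was next set against the other regions that the authors gave to the same gene. Their reads need not come from the same transcript or cell type, and 2 of the orphan regions tested lie over a gene other than the one named. By edgeR's test within genes (diffSpliceDGE), 300 orphan 3' UTR regions had another tested region in their gene, and 24 were lower than their gene and 69 higher (8% and 23.0%), with a median log2 of 0.27. Over all 12856 regions so tested, 15.9% were lower and 15.9% higher. Since regions with a miR-122 match fell in many genes, the others rose against them by construction. With those regions left out, 29 of 272 orphan regions were lower and 25 higher, beside 6.19% and 4.79% of all 10336. Among the rises in level that had this test, 39 were also higher than their gene and 61 did not pass within it. Among the falls that had it, 23 were also lower, 1 was higher and 32 did not pass. A further 29 regions were higher than their gene though their own level did not pass.

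**Figure D5:**
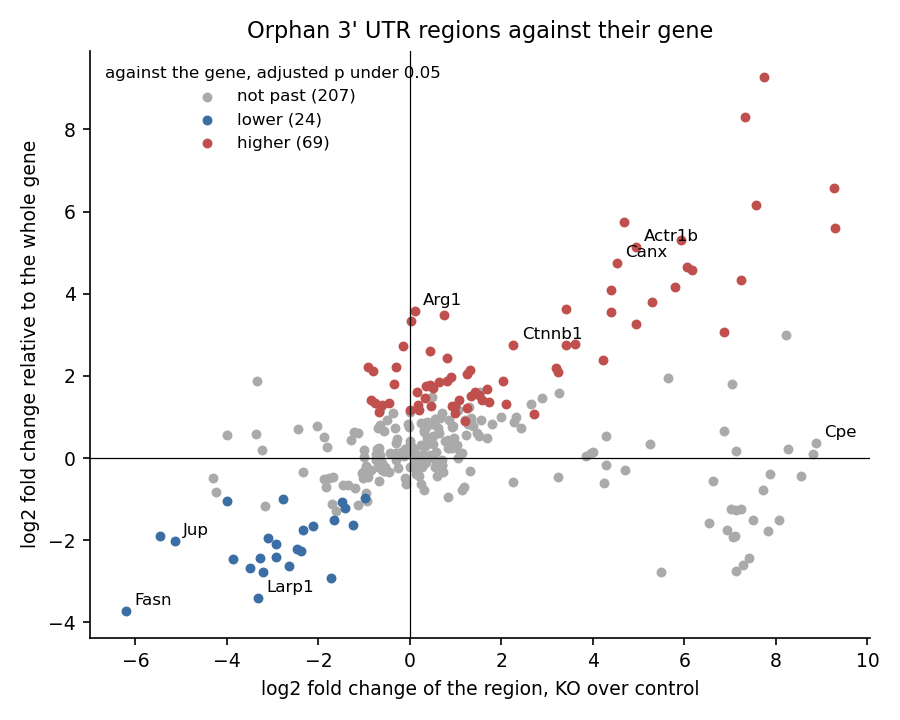
Log2 fold change relative to the whole gene, the region included (vertical), against the region's own log2 fold change, KO over control (horizontal), for the 300 orphan 3' UTR regions with another tested region in their gene, coloured by the test within genes. Fasn and Larp1 are low on both axes, Actr1b is high on both, Cpe is high in level only, and Arg1 is high relative to its gene only.

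The clearest regions apart from their gene, besides Fasn, Larp1, Serpinf2 and Actr1b, included 2 further falls. Phldb2 (log2 -1.73, and -2.93 relative to the gene, adjusted p = 4.92e-06) binds the cell cortex, and Klhl24 (log2 -2.65, and -2.62, adjusted p = 8.75e-06) is a ubiquitin ligase adaptor. Among those higher than their gene, Ctnnb1, which encodes beta-catenin (chromosome 9, 120960153 to 120960222, plus strand), held 18.3, 21.9, 9.65, 12.7 and 12.9 CPM in controls and 61, 70.3, 88 and 57.2 CPM in KO (log2 2.26, SE 0.32, and 2.75 relative to the gene, adjusted p = 1.15e-11). The groups did not overlap there, while 2 other orphan regions of Ctnnb1 did not pass (log2 -0.61 and 0.38). One region of Canx, the chaperone calnexin, gave log2 4.52 and 4.74 relative to the gene, with replicate 4 at 4.44 times the other KO libraries. Arg1, the arginase of the urea cycle, kept its level at 17.6 ± 5.18 and 18.5 ± 4.39 CPM (log2 0.11, adjusted p = 0.834). Of its 8 other regions 7 fell, and the median log2 over the 8 was -1.83. A coding region with a miR-122 match, which weighs most in the gene's sum, fell from 1284 to 40.8 CPM. Against that sum the orphan region stood 3.57 higher. Atp5a1, a subunit of ATP synthase, was likewise level in itself (log2 0.03) and higher than its gene (3.34). This fit kept regions with a miR-122 match, against which other regions rise by construction. Among the other regions tested, 2 of 8 in Arg1, 1 of 12 in Ctnnb1 and 3 of 9 in Canx held such a match, and all of these fell. Actr1b, Atp5a1 and Cyp2e1 hold a miR-122 region too.

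Other orphan 3' UTR regions were nearly level between genotypes. A region of Fbp1, the gluconeogenic fructose bisphosphatase, held 128, 132, 89.5, 124 and 109 CPM in controls and 103, 113, 124 and 127 CPM in KO (log2 -0.03, SE 0.23). One region each of Slc25a13, a carrier of the urea cycle (log2 -0.03, SE 0.34), Klf9, a transcription factor induced by glucocorticoids (-0.10, SE 0.28), Serpina6, which carries cortisol (-0.14, SE 0.33), Cyp2c29 (0.24, SE 0.32), the ferritin light chain Ftl1 (0.24, SE 0.26) and the aldehyde dehydrogenase Aldh2 (-0.26, SE 0.35) also changed little. In each the KO and control libraries overlapped. Cyp2c29 belongs to a family of similar genes, between which reads may be split.

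Nearness to a miR-122 region was looked at next, since neighbouring regions may share fragments. Within 100 bases of a region of the same gene with a miR-122 7mer or 8mer lay 15 orphan 3' UTR regions, of which 1 was tested. It lies in the corepressor gene Ctbp1 and was lower, at 15.3 ± 5.18 and 3.86 ± 2.19 CPM (log2 -2.02, adjusted p = 0.00366). Between 100 and 500 bases lay 146, of which 17 were tested, 4 lower and 7 higher (median log2 0.36). Farther away in the same gene lay 1046, of which 124 were tested, 29 lower and 31 higher (median 0.12). The gene held no such region for 2193, of which 192 were tested, 26 lower and 80 higher (median 0.78). With miR-122 matches of any class, 6 tested orphan regions lay within 100 bases, and 3 were lower and 1 higher (median log2 -1.03): Slc25a45, Ctbp1 and the kinase gene Pkn2 (-1.35) were lower and the adhesion gene Pvrl1 (1.37) was higher. Seed-matched 3' UTR regions without a miR-122 match showed a like order: 18 of the 68 tested within 100 bases of any match were lower (26.5%, median -0.45), 11.3% of those up to 500 bases, 7.24% of those farther away and 4.77% of those in genes without one.

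The genes with the most orphan 3' UTR regions were few and mostly thinly read. The name Fgfr2, a fibroblast growth factor receptor, was given to 9, but 5 of them lie over Fgfr2 in the reference table. The one that was tested lies over Ate1, an arginyltransferase, and was lower (log2 -3.50, adjusted p = 1.57e-04). Elovl2, Glud1, Grin2b, Impad1, Msi2, Ptbp3 and Tmod2 had 5 each. Those of the fatty acid elongase Elovl2, of Grin2b, of Impad1 and of the RNA-binding protein Msi2 were all too thinly read to test. Of the splicing factor Ptbp3, 2 were tested and did not pass (log2 0.92 and 0.48), and of Tmod2, 3 were tested and all were higher. The reference table held the gene named for 3380 of the 3400, and 3344 lay within 1000 bases of it. Of all 3400, 261 lay over more than 1 gene, 40 over none, and 19 over a gene other than the one named.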

How the data were processed

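AGO-bound RNA was counted in 9 mouse liver libraries, 5 control and 4 KO, with group, replicate number and sex taken from the labels and each library from a separate mouse per the labels. Bowtie2 and mm10 are named in the submitters' processing notes. How peaks were called, how duplicate and multiply mapped reads and strand were handled, and which minimum of reads was set is not stated (not given in the sources used here). Deposited values are read counts per region, not normalized, per the file headers. The deposited table held 143524 rows, 1 per region and seed match, with equal counts in all rows of a region, and was reduced to 92645 unique regions. Region classes, orphan marks and gene names are the authors', and 9 names of month form among the members were not used. The members, gene lists and microRNA list were chosen with earlier results of these data known.

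All regions were fitted together with edgeR 4.0.16 (R 4.3.3; filterByExpr, TMM, then glmQLFit and glmQLFTest), the model holding genotype and sex, and within genes with diffSpliceDGE, with Benjamini-Hochberg adjustment at 0.05. The fits were tested on simulated data. Adjusted p-values are from edgeR unless another tool is named. An SE was derived from the test's statistic and does not cover counting error in groups with few reads. The floor of 3 reads over a group is 0.717 CPM in controls and 0.775 CPM in KO. Shares and lists are described without a test. Named regions are the 10 most covered, the 10 of smallest p in each direction, the 5 largest falls and rises, the 5 of smallest p in each direction within genes, the 5 genes with the most members (8 with ties), the 10 least changed among the 50 most covered, and members of the fixed lists; any other region was named after its values were seen, and some named regions are not reported here. DESeq2 1.42.0, other scalings, filters, sexes, a replicate block and each library left out were alternatives. Counting intervals cover counting error only, since the libraries were amplified. No pair of replicates differed by less than sampling noise (chi-square per degree of freedom from 1.69 to 5.72). Python 3.11.15, pandas 2.3.3, numpy 2.4.6 and matplotlib 3.10.9 served for tables and plots.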

Additional observations from a re-analysis of the deposited data

Results flagged for a closer look

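In groups of 4 or 5 libraries, a library was singled out when its gap to the nearest other one took up an unusually large part of the group's range (Dixon's criterion at 95%). Among 164 groups of named regions and shares, 34 had such a library, and 20 of the 34 were KO replicate 4. The criterion's nominal rate of 1 in 20 does not apply here. The groups share the same libraries, many regions were picked for their change, and a library that alone holds reads is always singled out. In 17 of those 20 it was the highest library at a region that rose. The share of all counts in orphan 3' UTR regions was 3.42% in KO replicate 4, that of 3' UTR counts 9.99% and that of 3' UTR counts outside miR-122 regions 10.5%, where control replicate 5 was also apart at 7.62%.

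At the regions that rose, KO replicate 4 stood apart at 2592 CPM in Cpe, 351 and 269.7 CPM in Prkacb, 286 CPM in Igsf5 (over Pcp4), 212 CPM in Ntrk2, 188 CPM in Pcsk2, 151 and 121 CPM in Tmod2, 145 CPM in Spock2, 132.8 and 61.3 CPM in Timp2, 132.8 CPM in Rtn3, 129 CPM in Camk2a, 94.0 CPM in Qk, 87.8 CPM in Tcf25, 81.7 CPM in Cadm2 and 69.5 CPM in Syt1. The summed nerve cell genes were 5.01 times as high in this library as in the other KO libraries, and their part in these values was not tested.

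A single control with a read among controls without any was seen in Timp2 (1.44 CPM in replicate 5), in Camk2a and Pcsk2 (1.41 CPM in replicate 1), in Tcf25 and Tmod2 (0.846 CPM in replicate 4) and in another Tmod2 region (0.877 CPM in replicate 3). Control replicate 2 stood apart in Igf2 (6.58 CPM), and replicate 5 in Fgg (482 CPM). Among the other KO libraries, replicate 1 stood apart in Serpina6 (67.2 CPM), in Khsrp, where it was the lowest at 8.07 CPM, and in Slc25a45 (2.69 CPM, the only KO library with reads). KO replicate 2 stood apart in Cyp2c29 (76.6 CPM) and Ftl1 (108 CPM).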

How the results depend on the processing

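Regions lower in KO numbered 60 and regions higher 118, and DESeq2 with its own size factors gave 59 and 116. Without the filter on low counts, 148 of 3400 were lower and 774 higher, beside 11.3% and 12.2% of all 92645 regions. In males alone 54 of 529 were lower and 195 higher, beside 21.3% and 13.5% of all regions. The median log2 fold change, 0.45, was 0.68 with upper quartile scaling, 0.25 with TMM factors from regions without a miR-122 match, 0.97 without the filter, 1.09 in males alone and 0.247 with 3' UTR regions fitted alone. The first of these scalings put the median of all regions at 0.26 and the second at -0.17, against 0.03. Of the calls among orphan 3' UTR regions 66.3% were rises, 72.5% and 60.8% under those scalings, and of the calls over all regions 38.8%, 49.3% and 30.3%. The median over all regions tested was 0.248 without the filter, 0.0397 in males alone and 0.208 with 3' UTR regions fitted alone. Of regions compared with their gene, 24 were lower and 69 higher, and with all regions of at least 10 counts 66 and 283 of 2721, beside 7.03% and 6.4% of all. The count of those higher was 30 of 274 with 3' UTR regions alone and 25 of 272 without miR-122 regions. Beside these, 9.86% and 4.79% of all regions so tested were higher. The 3 ratios of shares moved by less than their spread in each alternative run, including 2 chosen after seeing the data: at least 10 counts per region, and no regions without a control read. That spread includes KO replicate 4, which widens it. The ratio outside miR-122 regions went from 1.09 to 0.960 without that library. It was 0.970 without the regions that had no control read, so its direction did not hold.

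Leaving out 1 library at a time left 248 to 397 regions tested and gave 37 to 78 lower, 83 to 138 higher, a median of 0.35 to 0.56, 10 to 32 lower than their gene and 40 to 79 higher. The lowest count of falls, 37, came without control replicate 4, of 250 tested and beside 23.5% lower of all regions. Without control replicates 3 and 4 the counts lower than their gene were 11 and 10, and without control replicate 4 and KO replicate 1 the counts higher were 40 and 42.

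Libraries with the same replicate number did not deviate together (correlations -0.08 to 0.005, and none highest with its own number), so the numbers pair nothing. With a replicate block over libraries 1 to 4 the counts were 34 lower and 97 higher, beside 3099 and 1637 of all 16412 regions tested, with a median of 0.56, and 8 lower and 45 higher than their gene.

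Of 81 named regions that were tested, 52 passed and 39 of these did so in every setting run. The 13 others lost the call in at least 1: Acsl1, Apoe, Cyp2e1, Fgg, G6pc, Hbb-bt, Khsrp, Sc4mol, Serpina1c and 2 regions each of Elovl5 and Glud1. A distance of 50 bases to a miR-122 region was not run, since no centres lie that close, and the search for sequence motifs, with its wider window, was not run. Depth limited the tests: 90.2% of the orphan 3' UTR regions were too thinly read.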

Other observations

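Further orphan 3' UTR regions, named here after their values were seen, add to the groups described. Among falls in lipid and coenzyme metabolism were Aacs, which activates acetoacetate (18.7 ± 13.7 to 1.31 ± 1.52 CPM, SD, n = 5 and 4; log2 -3.24, with 6 KO reads in all), the fatty acid carrier and ligase Slc27a2 (57.8 ± 25.4 to 14.4 ± 7.29 CPM; log2 -1.89), Hadh of beta-oxidation (log2 -1.80) and the pantothenate kinase Pank1 (log2 -1.13). The serum amyloid P gene Apcs (log2 -1.87), the apolipoprotein gene Apoc1 (-1.19) and the growth factor receptor gene Egfr (-1.69) were lower too, with adjusted p-values of 5.63e-04, 0.00412 and 0.00143 by edgeR's quasi-likelihood test. H2-K1 encodes a heavy chain that pairs with the B2m product. One of its regions was lower (log2 -0.98, adjusted p = 0.0301) and another did not pass (-0.25), and class I heavy chain genes are close copies between which reads may be split.

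Among rises in which KO replicate 4 was under 2 times the other KO libraries, the matrix proteoglycan Bgn had log2 3.23 (1.93 ± 1.56 to 17 ± 1.74 CPM, replicate 4 at 1.11 times the others). The actin-binding protein Marcks had log2 2.44, the small GTPase Rhob 2.88, the ceramide glucosyltransferase Ugcg 2.26 and the transcription factor Stat5b 2.10.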
